A study of Mus musculus with 2 samples.

Results

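The stefins and cystatins are protein inhibitors of papain-like cysteine proteases. Transcripts of 7 of their genes were looked for in mouse back skin: Stfa1, Stfa2, Stfa3 and Stfa2l1 of the stefin A group, Cstb (stefin B), Cst3 (cystatin C) and Cst6 (cystatin M/E). They were chosen by gene symbol, with the signals of these arrays already known. In the platform annotation 4 of the 7 have a probe set of their own, out of 12393 genes that could be named. These are Stfa3, Cstb, Cst3 and Cst6, with 5 probe sets between them. No probe set is named for Stfa1, Stfa2 or Stfa2l1 alone. One probe set is annotated to 2 stefin A genes at once, Cstdc4 and Csta2, and is given separately.

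Total RNA came from the back skin of mice 10 days old. The first group was transgenic mice whose keratinocytes make an always active aryl hydrocarbon receptor (AhR), and the second their wild-type littermates without a transgene. AhR is a transcription factor that binds dioxins and related aromatic compounds, and the active form needs no ligand. The sample title K14Ahr points to the keratin 14 promoter, which is active in basal keratinocytes. Each genotype has 1 array, and the number of animals behind it is not known here. No difference could therefore be tested, and the values compare these 2 arrays only. Whole skin was used, so more cells of a type and more RNA per cell cannot be told apart.

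Cystatins act as wedges in the active site of cathepsins, the proteases of lysosomes. Stefins lack a signal peptide and work inside cells, while cystatin C and cystatin M/E are secreted. In epidermis the balance of inhibitor and protease bears on cornification: mice without Cst6 have a defective skin barrier, and human stefin A is a constituent of the cornified envelope. Mice carry many stefin A genes side by side, and several of them are known from neutrophils and other myeloid cells as well as from keratinocytes.

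The stefin A genes lie in 1 cluster on chromosome 16, which holds 11 genes in the gene table of the assembly GRCm38.p6. Only 1 of the 11, Stfa3, has a probe set of its own. The 250 bases before the annotated start of Stfa3 (GRCm38.p6, chr16:36455393-36455642, minus strand, from RefSeq) are shown because this gene carries the main difference described here. The first capitals mark GCGTG, the core of the sequence that AhR and its partner bind. The second mark TTTAAA, which resembles a TATA box and was picked after the letters were read.
Stfa3: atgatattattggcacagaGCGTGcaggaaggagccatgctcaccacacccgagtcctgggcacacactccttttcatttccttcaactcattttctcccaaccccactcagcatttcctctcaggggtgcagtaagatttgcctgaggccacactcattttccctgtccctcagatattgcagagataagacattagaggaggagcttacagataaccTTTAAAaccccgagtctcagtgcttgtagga

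The core GCGTG, searched on both strands, occurred once in this window and began 231 bases before the start. It is found in 28.2% of the 32851 promoter windows of the same length. The longer form TNGCGTG, which contains the core, was not found in the window and occurs in 4.10% of all of them. None of the other 3 stefin A members had GCGTG in its window. A match of letters is not evidence of binding, and Stfa1, Stfa2 and Stfa2l1 have no signal here to set beside it. The aligned stretches of the 4 promoters follow (GRCm38.p6, RefSeq), with the 5 aligned bases in capitals.
Stfa3 (chr16:36455599-36455642, minus strand): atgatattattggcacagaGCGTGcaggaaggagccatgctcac
Stfa1 (chr16:36276898-36276944, plus strand): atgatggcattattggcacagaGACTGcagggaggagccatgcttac
Stfa2 (chr16:36408569-36408612, minus strand): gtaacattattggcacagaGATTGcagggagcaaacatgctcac
Stfa2l1 (chr16:36156561-36156602, plus strand): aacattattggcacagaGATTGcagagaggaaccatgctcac

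Along their whole length the 4 promoters are close copies. Over the 6 pairs, identity along the aligned bases ran from 82.9% (Stfa1 and Stfa2) to 92.3% (Stfa2 and Stfa2l1). Stfa3 was most like Stfa1, with 213 of 245 aligned bases the same. All 4 held TTTAAA, beginning 29 to 33 bases before the start, against 12.1% of all windows. The mouse stefin A genes are known to be near-copies of each other, so the Stfa3 probe set may read transcripts of its neighbours in the cluster. The name of the probe set carries no mark of such binding, and probe sequences were not used here. The promoter window of Cst3, the other measured member with an entry in the table, is of another kind (GRCm38.p6, chr2:148875513-148875762, minus strand, RefSeq). It held no TTTAAA and no GCGTG, but 1 GGGCGG, the GC box of many broadly expressed genes (capitals), which 32.7% of all windows hold. Its GC content was 59.6%, against 48.4% for Stfa3 and a median of 52.4% over all windows. No entry was used for Cstb or Cst6.
Cst3: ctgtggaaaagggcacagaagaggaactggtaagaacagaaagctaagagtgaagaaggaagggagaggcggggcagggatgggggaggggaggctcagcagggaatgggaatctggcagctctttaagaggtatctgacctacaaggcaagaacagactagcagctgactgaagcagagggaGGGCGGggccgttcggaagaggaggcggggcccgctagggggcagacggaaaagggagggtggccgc

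Signals are linear, in arbitrary units, and were scaled to equal trimmed means. They are comparable for 1 probe set between arrays, not between probe sets. A floor of 34.7, the 40th percentile of the signals of non-control probe sets on both arrays, separates dim from measured values. A gene counts as measured when its brightest probe set lies above the floor on at least 1 array, which held for 8894 genes. The median log2 ratio of transgenic over wild type over these genes was -0.05. The 12 spike-in control probe sets above the floor had log2 ratios from -0.29 to 0.07. The ratio of 3′ to 5′ signal, a measure of RNA integrity, was 0.776 on the transgenic and 0.804 on the wild-type array for Gapdh, and 1.35 and 1.27 for Actb. All 31 keratinocyte markers of 3 lists with a probe set were measured.

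All 4 measured members had a higher signal on the transgenic array, but by very unequal amounts. Stfa3 was at least 40.1-fold higher, while Cst3, Cst6 and the brighter probe set of Cstb differed by 1.51-fold, 1.41-fold and 1.25-fold. At the limit of 2-fold, 1 of the 4 was higher and none was lower. Over all measured genes, 2.27% were higher by 2-fold or more, 1.09% were lower by as much, and 43.6% lay above 0. The members were chosen with this contrast in view, so their counts are a description. Their median log2 ratio was 0.54 with Stfa3 and 0.50 without it.

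**Figure D1:**
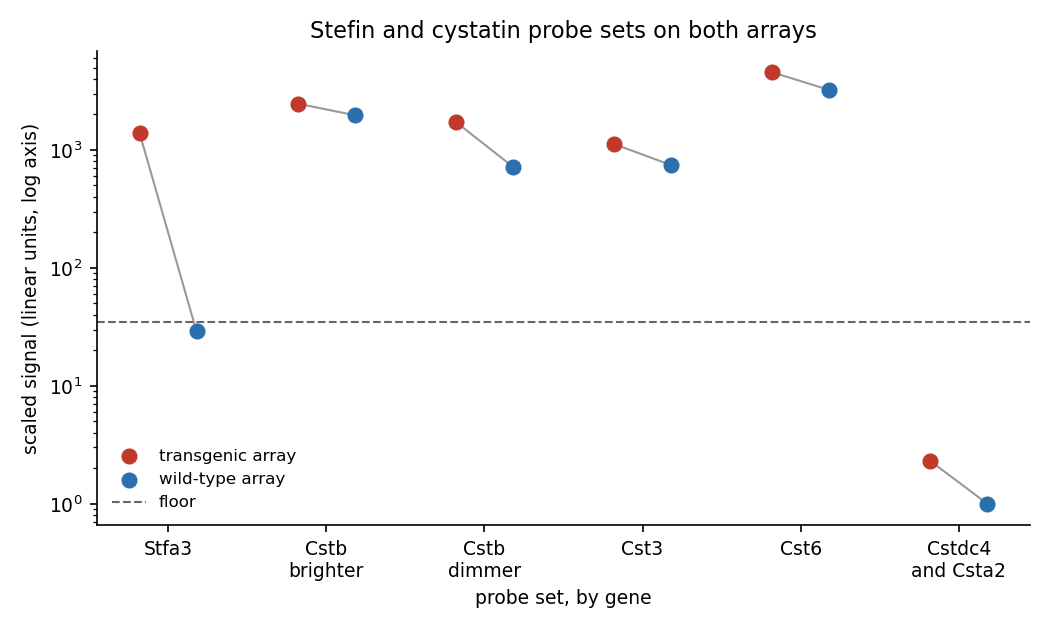
Scaled signal of each stefin and cystatin probe set on the transgenic array (red, left of each pair) and the wild-type array (blue, right), on a log axis, with the floor of 34.7 as a dashed line; each point is 1 array. Stfa3 lies at 1390 on the transgenic array, against 28.9, below the floor, on the wild-type array, and the shared probe set of Cstdc4 and Csta2 stays far below it.

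Stfa3, an inhibitor of the stefin A group that acts in the cytosol, read 1390 on the transgenic and 28.9 on the wild-type array. The wild-type signal lay below the floor, so the log2 ratio of 5.32 is a lower bound. The gene was thus well measured in transgenic skin and dim in wild-type skin. Because it is a bound, its place among the other genes is not fixed. With the floor at the 60th percentile the bound was 4.30, so its size depends on where the floor is set. The probe set shared by Cstdc4 and Csta2 read 2.3 on the transgenic and 1.0 on the wild-type array, both below the floor, and has no ratio. The high stefin A signal was therefore seen with 1 of the 2 probe sets of this cluster.

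Cstb encodes stefin B, a cytosolic inhibitor found in most cell types, whose loss in humans causes a progressive myoclonus epilepsy. Its brighter probe set read 2473 on the transgenic and 1972 on the wild-type array, a log2 ratio of 0.33. The other probe set read 1726 on the transgenic and 721 on the wild-type array, a log2 ratio of 1.26 or 2.39-fold. Both were higher on the transgenic array, but they lie on different sides of the 2-fold limit and differ by 0.93 on the log2 scale. Of 1764 genes with exactly 2 probe sets that exceeded the floor on each array, 2.10% had probe sets that differed by as much. The median difference was 0.22. The name of the brighter probe set carries the suffix a, which marks probes shared by several transcripts of a gene. Which part of the transcript each reads is not known here, and the size of the Cstb difference is therefore uncertain. Counted by probe set, 2 of the 5 were at least 2-fold higher, where 2.12% of all measured probe sets were.

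The secreted inhibitors both differed by less than 2-fold. Cst3, the gene of cystatin C, which is made by most tissues and abundantly by macrophages and dendritic cells, read 1122 on the transgenic and 745 on the wild-type array (log2 ratio 0.59). Cst6 encodes cystatin M/E, which inhibits both cathepsins and legumain and is made by suprabasal keratinocytes. It read 4556 on the transgenic and 3229 on the wild-type array (log2 ratio 0.50). Each gene has 1 probe set, so no second reading bears on either value. The ratios can be set beside those of other bright genes. Of 627 genes above the floor on both arrays with a mean log2 signal of at least 9, a signal of 512, 7.18% had a ratio as high as that of Cst3 or higher. For Cst6 the share was 9.41%, for the brighter Cstb probe set 15.6% and for the dimmer one 1.12%. The SD of the log2 ratio over these bright genes was 0.40. Probe sets of 1 gene varied with an SD of 0.26. That spread holds no error between animals or arrays, so it does not show whether the ratios of Cst3 and Cst6 exceed such error.

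**Figure D2:**
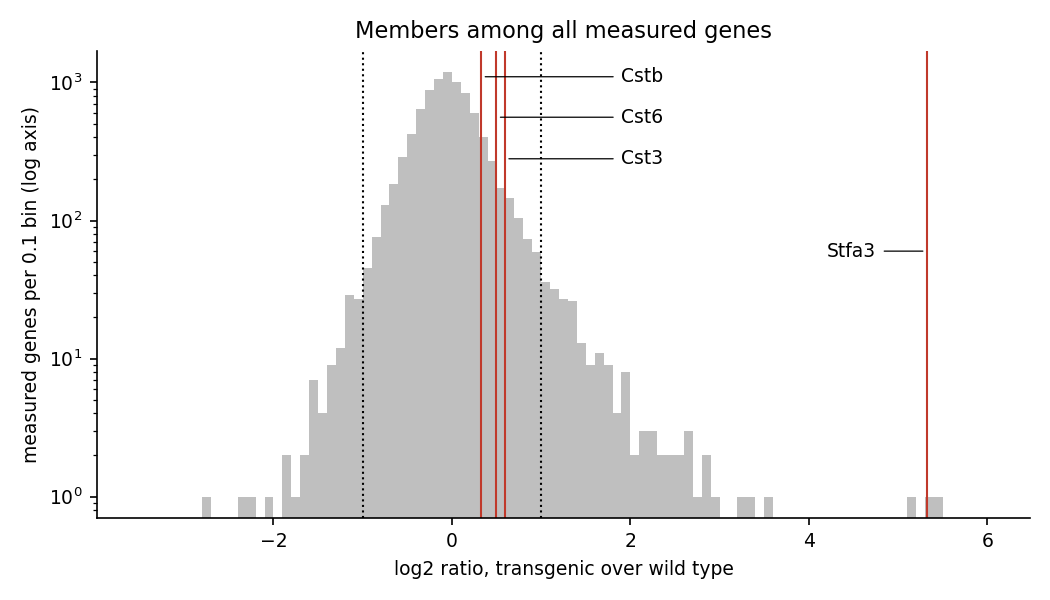
Histogram of log2 ratios (transgenic over wild type) of 8894 measured genes in bins of 0.1, with the count on a log axis, and red lines at the members; dotted lines mark 2-fold. Cstb (0.33), Cst6 (0.50) and Cst3 (0.59) lie on the upper shoulder of the bulk, and Stfa3 (at least 5.32) lies at the far right.

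Other genes of the cystatin superfamily were mostly dim. Of 11 further listed genes with a probe set, 10 were below the floor on each array, with signals between 1.70 and 30.5 on the transgenic array and between 1.80 and 23.5 on the wild-type one. They include Cst7 (cystatin F, of immune cells) and several cystatins known from the reproductive tract, such as Cst11 and Cst12. The 1 measured gene was Hrg, of the liver plasma protein histidine-rich glycoprotein, with 68.6 on the transgenic and 58.3 on the wild-type array (log2 ratio 0.23). Its probe set is marked as able to bind related transcripts. Among measured genes of the superfamily, each by its brightest probe set, the 1 difference past 2-fold was that of Stfa3.

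Most of the proteases that these inhibitors act on differed little between the arrays, while Ctss and Lgmn were several-fold higher on the transgenic one. Of 9 measured cysteine cathepsins and legumain, 2 were higher on the transgenic array by 2-fold or more, and none was lower by as much. Over all measured genes, 2.27% were higher and 1.09% lower by as much. The log2 ratios of the 9 had a median of 0.24, against -0.05 over all measured genes. Ctss, the gene of cathepsin S, which trims the invariant chain of MHC class II in antigen-presenting cells, read 435 on the transgenic and 94.1 on the wild-type array (4.63-fold higher). Lgmn, the gene of legumain, an asparagine-specific protease that cystatin M/E inhibits, read 297 on the transgenic and 79.0 on the wild-type array (3.76-fold higher). Both pairs of signals lie well above the floor, and each gene has 1 probe set.

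The main lysosomal cathepsins of most cells read almost alike on both arrays. Ctsb, of cathepsin B, had signals of 2821 on the transgenic and 2547 on the wild-type array, and its 4 probe sets had log2 ratios from 0.15 to 0.37. Ctsl, of cathepsin L, a protease of keratinocytes that cystatin M/E restrains, read 1814 on the transgenic and 1844 on the wild-type array (-0.02). Ctsz, of the carboxypeptidase cathepsin Z, was at -0.06, with 3 probe sets from -0.33 to 0.11. Between these and the pair above lay Ctsh (0.48), Ctsf (0.35), Ctsc (0.24), the activator of neutrophil serine proteases, and Ctsk (0.17), a collagen-degrading protease. The 9 cathepsin genes below the floor on both arrays were Ctsw, of cytotoxic lymphocytes, and 8 genes that are known mainly from placenta.

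Proteases of the lysosome with another mechanism, which cystatins do not inhibit, had a median log2 ratio of 0.13 over 6 measured genes, and none differed by 2-fold. Ctsa (0.62) and Dpp7 (0.24) were the highest and Ctse, an aspartic protease of epidermis and immune cells, was the lowest (-0.58, with 724 on the transgenic and 1085 on the wild-type array). Tpp1 was next to it at 0.09. The other measured probe set of Dpp7 was at -0.10, so the sign and place of this gene are not settled. Among transglutaminases, the enzymes that cross-link the cornified envelope, Tgm3 had 238 on the transgenic and 406 on the wild-type array (-0.77), Tgm1 was at -0.11 and Tgm2 at 0.11. None of the 3 differed by 2-fold.

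**Figure D3:**
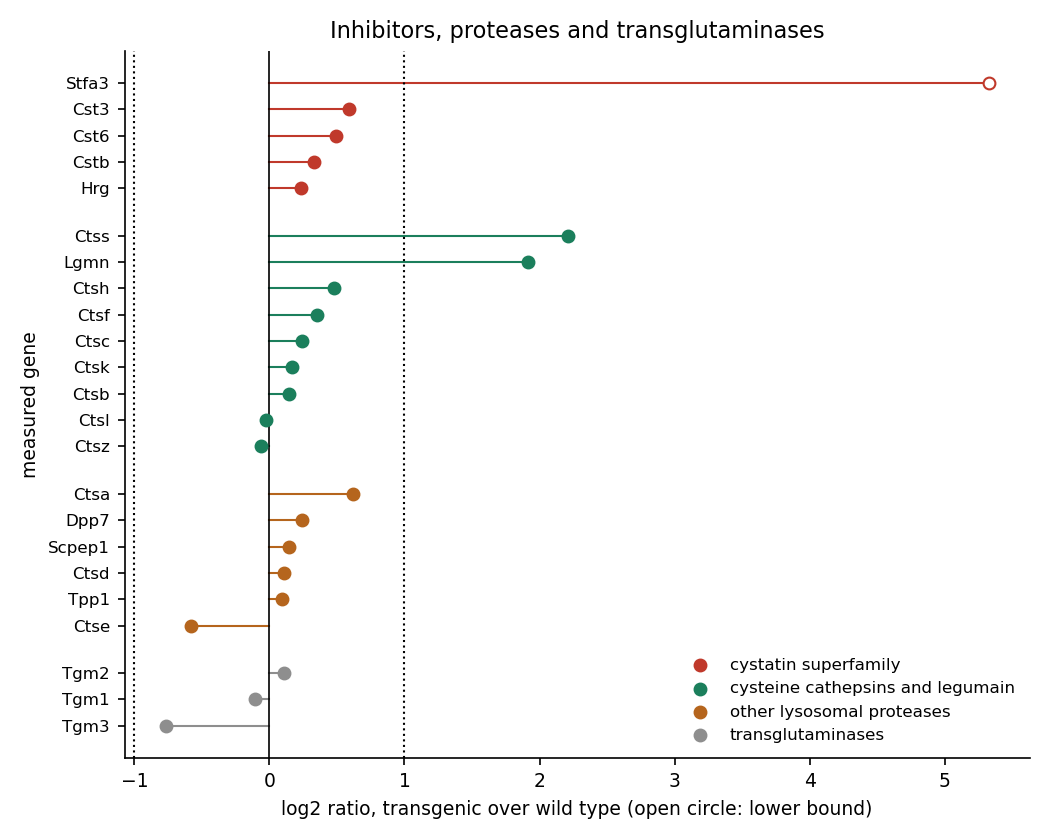
Log2 ratio (transgenic over wild type) of each measured gene of the cystatin superfamily (red), cysteine cathepsins and legumain (green), other lysosomal proteases (brown) and transglutaminases (grey); dotted lines mark 2-fold and an open circle a lower bound. Stfa3 (at least 5.32), Ctss (2.21) and Lgmn (1.91) are the genes past 2-fold.

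Markers of cell types that express stefins and cystatins also differed between the arrays. Over all measured genes, 2.27% were higher by 2-fold or more and 1.09% lower, which is the background for the list counts below. Of 14 measured granulocyte markers, 5 were higher by 2-fold or more, none was lower by as much, and the log2 ratios had a median of 0.66. The signals of all 19 listed markers with a probe set summed to 3294 on the transgenic and 1243 on the wild-type array. Such sums weigh bright probe sets most: Hp, S100a8 and S100a9 gave 2266 of it on the transgenic and 661 on the wild-type array. S100a9 (3.57) and Hp (1.97) were the highest, and Cxcr4 (-0.20) and Mpo (0.01) the lowest. The granule genes of neutrophils in this list, singled out after their values were seen, did not move alike. Ngp read 155 on the transgenic and 64.0 on the wild-type array (2.43-fold higher), and Lcn2 read 107 on the transgenic and 7.6 on the wild-type array (at least 3.07-fold higher). Ltf was 1.53-fold higher, and Camp at least 1.24-fold. Mmp9 and Mmp8, also in the list, were 1.54-fold and 1.19-fold higher. Mpo, the myeloperoxidase gene, read 56.4 on the transgenic and 56.1 on the wild-type array, and the granule proteases Elane and Prtn3 lay below the floor on both arrays. So did the surface genes Cxcr2, Cd177 and Itgam. Whole skin was read, so which cells made the transcripts of this list is not known here. The part of granulocytes in the Stfa3 signal was not tested.

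Macrophage markers had the highest median of the 7 lists, 1.52, with 12 of 18 measured genes at least 2-fold higher and none lower by that much. The 19 genes with a probe set summed to 3621 on the transgenic and 1211 on the wild-type array, and Aif1 alone lay below the floor on both. C1qa (2.59) and Mrc1 (2.43) were the highest, and Msr1 (-0.29) and Fcgr1 (at least 0.18) the lowest. Ctss (2.21) and Lgmn (1.91), which macrophages express strongly, lay within this range, and so did Cst3 (0.59) toward its lower end. The range is wide and also held Cst6 (0.50) and the brighter Cstb probe set (0.33). How far macrophages account for any of these values was not tested. Mast cell markers had a median of 0.80, with 2 of 7 measured genes at least 2-fold higher and none lower by that much. Their sums were 984 on the transgenic and 595 on the wild-type array. Mcpt4 (1.23) and Cpa3 (1.10) were the highest, Kit (-0.46) and Ms4a2 (-0.15) the lowest, and Hdc lay below the floor on both arrays.

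Of the 31 measured keratinocyte markers, 11 were higher on the transgenic array by 2-fold or more, 2 were lower by as much, and 7 lay below 0. The 9 basal markers had a median of 0.59, with 1 gene at least 2-fold higher and 1 lower by that much, and sums of 8279 on the transgenic and 6095 on the wild-type array. Their extremes were Itgb4 (1.02) and Krt14 (0.74) at the top and Krt15 (-1.43) and Trp63 (-0.29) at the bottom. The 3 probe sets of Trp63 ran from -0.29 to 0.15, so its sign is not settled. Those of Krt14 ran from 0.66 to 1.01, with the highest just past 2-fold. The 9 suprabasal markers had a median of 0.75, with 3 at least 2-fold higher and none lower by that much, and sums of 19488 on the transgenic and 9238 on the wild-type array. Krt1 (2.61) and Calm4 (2.25) led this list, and Dsc1 (-0.19) and Sfn (0.10) closed it. The 13 cornified envelope markers had a median of 1.17, with 7 higher and 1 lower by 2-fold, and sums of 11611 on the transgenic and 7877 on the wild-type array. Casp14 (at least 2.89) and Hrnr (2.77) stood at the top, and Ivl (-1.50) and Sprr1b (-0.56) at the bottom. The 8 fibroblast markers had a median of 0.40, with 1 at least 2-fold higher and none lower by that much. Pdgfra (1.40) and Thy1 (0.80) were above Col1a1 (-0.54) and Col1a2 (-0.26), and the list summed to 9721 on the transgenic and 10024 on the wild-type array. The 2 measured probe sets of Pdgfra were at 0.18 and 1.40, and those of Col1a1 at -0.54 and 0.41. The 2-fold call of Pdgfra and the sign of Col1a1 thus rest on the probe set chosen. Cst6 (0.50) and Cst3 (0.59) lay below the medians of the suprabasal and cornified lists.

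**Figure D4:**
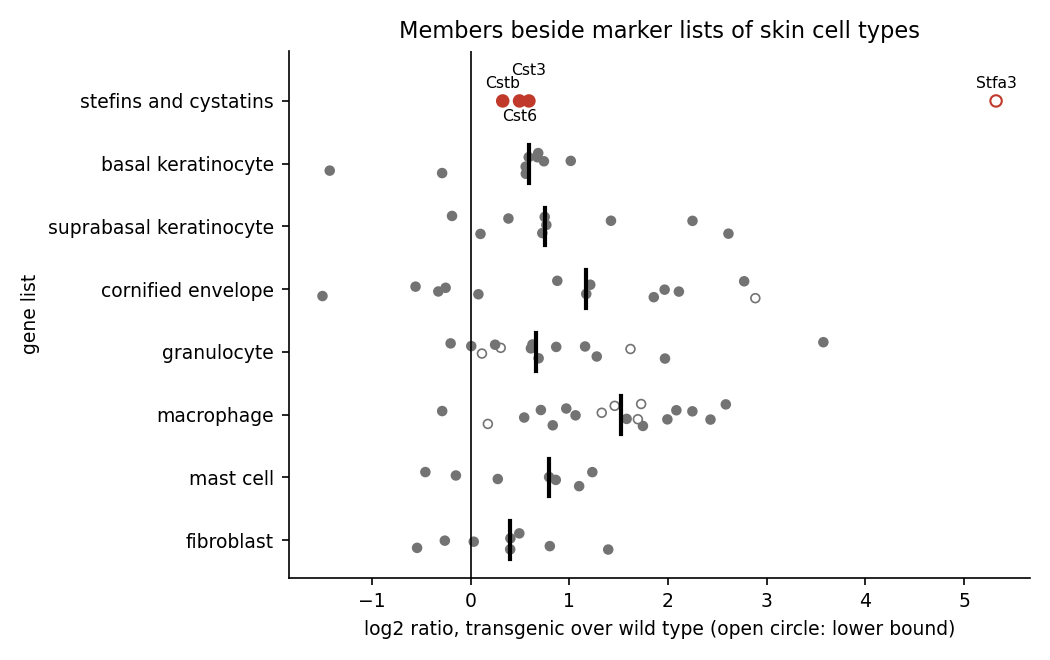
Log2 ratio (transgenic over wild type) of the measured members (red) and of measured markers of skin cell types (grey points, with the median of each list as a black bar); open circles are lower bounds. Cstb, Cst6 and Cst3 lie between 0.33 and 0.59, inside the spread of every list, while Stfa3 (at least 5.32) is drawn to the right of them; the order of lower bounds among themselves is not known.

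Genes next to the members in the genome were compared as well. The 3 nearest genes with a probe set were taken on each side of each member or its gene cluster. Of 24 such neighbours 21 were measured, and 1 differed by 2-fold. Around the stefin A cluster on chromosome 16, the 5 measured neighbours had log2 ratios from -0.47 (Ccdc58) to 0.63 (Fam162a). Casr, of the calcium-sensing receptor, which lies next to Stfa3, read 103 on the transgenic and 141 on the wild-type array (-0.46). Kpna1 was at 0.19, Cd86 at least 0.39, and Ildr1 lay below the floor on both arrays. The high signal of Stfa3 was thus not shared by the genes that flank the cluster. The neighbour past 2-fold was Casp14, on chromosome 10 near Cstb, with 256 on the transgenic and 21.1, below the floor, on the wild-type array. Casp14 encodes a protease of the cornifying epidermis. The other 4 measured neighbours of Cstb lay between -0.21 (Pdxk) and 0.22 (Agpat3). Outside the cystatin cluster that holds Cst3 on chromosome 2 the range was -0.47 (Cd93) to 0.68 (Napb). The 2 other genes with a probe set inside this cluster were not taken. Near Cst6 on chromosome 19 the range was -0.38 (Pacs1) to 0.60 (Sart1).

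The genes whose pair of signals was most like that of Stfa3, by distance between log2 signals over the 2 arrays, were Krt6b, Cyp1a1 and Lyz1. The wild-type signal of Stfa3 was set to the floor for this, so the distances are approximate. Krt6b, a keratin of wounded epidermis, read 1450.5 on the transgenic and 41.3 on the wild-type array, at a distance of 0.26. Cyp1a1, a xenobiotic enzyme gene and classic target of AhR, read 1802 on the transgenic and 40.8 on the wild-type array, at a distance of 0.44. Lyz1, a lysozyme gene, was much farther off, at 1.51. For Cst6 the nearest were Actb (0.25), Rps14 (0.25) and Rpl38 (0.26), genes of the cytoskeleton and the ribosome with bright signals on both arrays. With 2 arrays such likeness reflects level as much as difference.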

How the data were processed

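Per the labels, total RNA of back skin was labelled with biotin, and transgenic and wild-type mice have 1 array each. The deposited table gives each probe set's intensity on a linear scale, with medians of 49.1 (transgenic) and 50.7 (wild type). Their trimmed means, leaving out the highest and lowest 2%, were both 100.03, so they had been scaled before deposit. The authors' software is not given in the sources at hand. Detection calls were not used here.

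The annotation of the platform, dated 2016, gives 1 gene for 20380 of the 22690 probe sets, several for 691 and none for 1555, and 64 are controls. Gene identifiers were matched to the GRCm38.p6 gene table for current symbols, and 29 probe sets found no match. Its coordinates served only for gene order.

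With Python 3.11.15, the trimmed means were made exactly equal, signals under the floor were set to it, and log2 was taken. The probe set brightest over both arrays stood for its gene, and a 2-fold difference was the limit. With 1 array per group there is no test, and precision is limited by the number of arrays. The named genes are all members and shared probe sets, the measured cystatins and cathepsins, the 2 highest and 2 lowest of each other list, flanking genes and the 3 nearest in signal. The members and lists were chosen with earlier results of these data known. The calculation was tested on simulated data. Alternatives were other scalings, a floor at the 20th or the 60th percentile, adding 16 to each signal instead, other choices of probe set and limits of 1.5-fold and 3-fold.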

Additional observations from a re-analysis of the deposited data

How the results depend on the processing

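Of 90 values under the alternatives, 76 stayed within 1.5 times (counts) or within 0.26 (log2 ratios, the spread between probe sets of a gene), 14 moved further, and none changed sign. Putting the floor at the 20th percentile gave 393 genes higher by 2-fold and 257 lower, and the 60th percentile gave 123 and 45, when Stfa3 was at 4.30. A pseudocount of 16 put Stfa3 at 4.97. Cstb was at 0.79 as the mean over its probe sets and at 1.26 without suffixed probe sets. Without suffixed probe sets 2 members were at least 2-fold higher, and Cst3 had no value. Over all genes 160 were then higher by 2-fold and 75 lower. At 1.5-fold 605 genes were higher and 567 lower, with 2 members higher, and at 3-fold 61 and 9. Stfa3 ran from 4.30 to 5.59, Cst3 from 0.51 to 0.64 and Cst6 from 0.42 to 0.54. The floor sets the Stfa3 bound, and the choice of probe set the Cstb value. The shared probe set was below each floor. No paired analysis was possible because each genotype has 1 array.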
